A study of Homo sapiens with 6 samples.

Results

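The data described here are the RNAs of 10 glycolytic genes in RNA immunoprecipitation (IP) sequencing libraries of WaGa cells, an established Merkel cell carcinoma (MCC) cell line that carries Merkel cell polyomavirus. The genes are *GAPDH*, *GPI*, *PFKL*, *PFKP*, *ALDOA*, *TPI1*, *PGK1*, *ENO1*, *PKM* and *LDHA*, 10 of the 60655 genes in the count table, taken by gene name. *GAPDH* was selected on its read counts, which were higher with the antibody to IGF2BP3 than with IgG, and the other genes because their products work in the same pathway, so that the comparison asks how far the higher level of *GAPDH* was shared by its pathway. The values of the 10 genes in that comparison are therefore given as descriptions, and counts of genes past a threshold stand there beside the share of all genes and support nothing. Both groups were wild-type WaGa cells, untreated and cultured in RPMI medium with serum. The IgG IP group (3 libraries) received a control IgG antibody and the IGF2BP3 IP group (3 libraries) an antibody to the RNA-binding protein IGF2BP3, also called IMP3 in the labels. Replicates were numbered 1 to 3 in each group, and nothing in the sources used here says that they came from separate cultures, so p-values measure the spread between these libraries, which may be technical. All libraries came from 1 cell line, and no library of RNA before IP was analysed here.

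IGF2BP3 is a cytoplasmic protein that binds many mRNAs and is known for affecting their stability, localization and translation. It is made in fetal tissue and again in many tumors, among them MCC. Glycolysis splits glucose into pyruvate in the cytosol, and lactate dehydrogenase turns pyruvate into lactate, a route that many tumor cells use heavily. In the order of the pathway, GPI converts glucose 6-phosphate into fructose 6-phosphate, PFKL and PFKP are subunits of the phosphofructokinase that commits sugar to glycolysis, ALDOA cleaves the product and TPI1 interconverts the resulting triose phosphates. GAPDH then oxidizes glyceraldehyde 3-phosphate, PGK1 makes the first ATP, ENO1 makes phosphoenolpyruvate, PKM turns that into pyruvate with a further ATP, and LDHA reduces pyruvate to lactate. The mRNA of *GAPDH* is also a common normalizer in RT-qPCR, and the study's methods used it so.

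The libraries held 9758759 to 14886414 counts on genes, and 14507 genes, all 10 glycolytic genes among them, passed the filter of edgeR on low counts. Of 8 genes listed as MCC markers, 7 had at least 1 normalized CPM in every library (*NEUROD1* was at or near 0), with sums of 3945 to 4303 in the IgG IP, against 3862 to 4175 in the IGF2BP3 IP. None of 4 blood or 3 keratinocyte markers, and 1 of 4 fibroblast markers (*DCN*), reached 1 CPM in every library. Normalized CPM are library-size-scaled counts (CPM) after TMM normalization, which scales each library so that most genes keep the same level. Replicate 1 was unlike the other libraries of its group in both IPs, with 1139 of the 14507 genes (7.85%) differing between them by at least 1.5-fold at an adjusted p under 0.05 (edgeR quasi-likelihood test with condition in the fit). The genes that the results turn on are therefore given by replicate. The mRNA of *IGF2BP3* itself (ENSG00000136231.14) had 139 ± 4.66 (SD, n = 3) normalized CPM in the IgG IP against 136 ± 4.92 (SD, n = 3) in the IGF2BP3 IP.

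*GAPDH* (ENSG00000111640.15) stood higher in every IGF2BP3 IP library than in any IgG IP library. In replicates 1 to 3 it had 453, 296 and 288 normalized CPM in the IgG IP, against 690, 473 and 471 in the IGF2BP3 IP, on 3568 to 8214 counts. The groups did not overlap, but the lowest IGF2BP3 IP library lay close to replicate 1 of the IgG IP, and replicate 1 was the highest library of both groups. The means were 346 ± 93.3 (SD, n = 3) in the IgG IP, against 544 ± 126 (SD, n = 3) in the IGF2BP3 IP, a fitted log2 fold change of 0.66 (SE 0.20). Within same-numbered pairs the log2 differences were closer together, at 0.61, 0.68 and 0.71 for replicates 1 to 3. With the replicate number as a block the log2 fold change was again 0.66, with an SE of 0.05. The TPM values, which RSEM estimated from the same reads, separated the groups more widely, with 374, 355 and 344 TPM in the IgG IP, against 674, 616 and 598 TPM in the IGF2BP3 IP.

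The *GAPDH* gene lies on GRCh38 chromosome 12, 6534512 to 6538374, on the plus strand, and its canonical transcript has 9 exons and 1285 bases. An antisense gene, *AC006064.4*, covers 422 of these bases (32.8%) on the other strand. The sources used here do not say whether reads were counted by strand, so that reads of the pair cannot be told apart in this stretch. The antisense gene had 35 to 129 counts per library, against at least 3568 on *GAPDH*, and a log2 fold change of 0.78 (SE 0.33, adjusted p = 0.37). A coding stretch of *GAPDH* in exon 8 is shown on its transcript strand because it crosses the edge of the shared part. The sequence is of chr12:6537744-6537893, with the 100 bases under the antisense exon in capitals.
*GAPDH* exon 8: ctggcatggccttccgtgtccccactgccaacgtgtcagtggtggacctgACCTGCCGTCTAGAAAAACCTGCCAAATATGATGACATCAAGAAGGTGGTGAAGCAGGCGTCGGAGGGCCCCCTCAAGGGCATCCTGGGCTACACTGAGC
The 65 annotated *GAPDH* pseudogenes, near-copies that can share its reads, had 7 to 28 counts per library in sum.

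Of the other 9 mRNAs, *GPI*, *ENO1* and *PKM* were also higher in all IGF2BP3 IP libraries than in all IgG IP libraries, by smaller fitted steps than *GAPDH*. For *GPI* that order turned without IGF2BP3 IP replicate 1 (0.57, against 0.45 for *GAPDH*, as log2 fold changes), without IgG IP replicate 2 (0.57 against 0.56) and without IgG IP replicate 3 (0.66 against 0.55). *GPI* (ENSG00000105220.17) had 49.9, 69.2 and 76.1 normalized CPM in replicates 1 to 3 of the IgG IP, against 88.4, 99.5 and 94.2 in the IGF2BP3 IP. Replicate 1 was the lowest library of each group, and the groups were apart. The log2 fold change of *GPI* was 0.53 (SE 0.14), with the largest within-pair difference in replicate 1 (0.83) and the smallest in replicate 3 (0.31). *GPI* lies on chromosome 19, 34359480 to 34402413, on the plus strand.

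*ENO1* (ENSG00000074800.16) had 134, 152 and 157 normalized CPM in the IgG IP, against 178, 180 and 201 in the IGF2BP3 IP, a log2 fold change of 0.34 (SE 0.09). *PKM* (ENSG00000067225.19) had 83.1, 82.6 and 88.7 in the IgG IP, against 97.6, 98.1 and 110 in the IGF2BP3 IP, a log2 fold change of 0.26 (SE 0.08). Both sets of libraries were separate on this scale, and replicate 1 did not stand out in the IGF2BP3 IP for either gene. On the TPM scale *PKM* stayed separate, whereas the lowest IGF2BP3 IP library of *ENO1* (114 TPM, replicate 1) fell below the highest IgG IP library (124 TPM, replicate 3). *ENO1* lies on chromosome 1, 8861000 to 8879190, and *PKM* on chromosome 15, 72199029 to 72231819, both on the minus strand.

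The enzymes that stand directly beside GAPDH in the pathway had nearly equal levels in both IPs. *TPI1* (ENSG00000111669.15), which supplies its substrate, had 240, 219 and 225 normalized CPM in the IgG IP, against 268, 212 and 239 in the IGF2BP3 IP, and the groups overlapped. Its log2 fold change was 0.07 (SE 0.10), and -0.02 without IGF2BP3 IP replicate 1. *PGK1* (ENSG00000102144.15), which takes up its product, had 352, 392 and 406 normalized CPM in the IgG IP, against 343, 397 and 401 in the IGF2BP3 IP. Here too the groups overlapped, with replicate 1 lowest in both, and the log2 fold change was -0.01 (SE 0.09), and 0.18 on the log2(TPM + 1) scale. *TPI1* lies on the same chromosome as *GAPDH*, at 6867119 to 6870948 on chromosome 12, and *PGK1* on chromosome X, 77910739 to 78129295, both on the plus strand.

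The phosphofructokinase subunits rested on few reads. *PFKL* (ENSG00000141959.17, chromosome 21, 44300051 to 44327376) had 9.60 to 12.3 normalized CPM in the IgG IP against 12.2 to 14.4 in the IGF2BP3 IP, on 110 to 184 counts. *PFKP* (ENSG00000067057.18, chromosome 10, 3066333 to 3137718) had 5.89 to 9.38 in the IgG IP, against 8.08 to 9.75 in the IGF2BP3 IP, on 60 to 140 counts. The groups overlapped for both genes, with log2 fold changes of 0.21 (SE 0.15) for *PFKL* and 0.26 (SE 0.20) for *PFKP*. Both lie on the plus strand.

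*LDHA* (ENSG00000134333.14, chromosome 11, 18394560 to 18408425, plus strand) differed far more between replicates than between the IPs. It had 116, 256 and 254 normalized CPM in replicates 1 to 3 of the IgG IP, against 118, 272 and 308 in the IGF2BP3 IP. Replicate 1 was the low library of both groups, on 1071 and 1403 counts, and the groups overlapped. The log2 fold change was 0.16 (SE 0.37), and with the replicate block 0.14 (SE 0.06). It turned to -0.13 when replicate 1 of the IgG IP was left out, and to -0.12 when replicate 3 of the IGF2BP3 IP was. Within pairs the IGF2BP3 IP was higher by 0.02, 0.09 and 0.28 on the log2 scale for replicates 1 to 3.

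**Figure D1:**
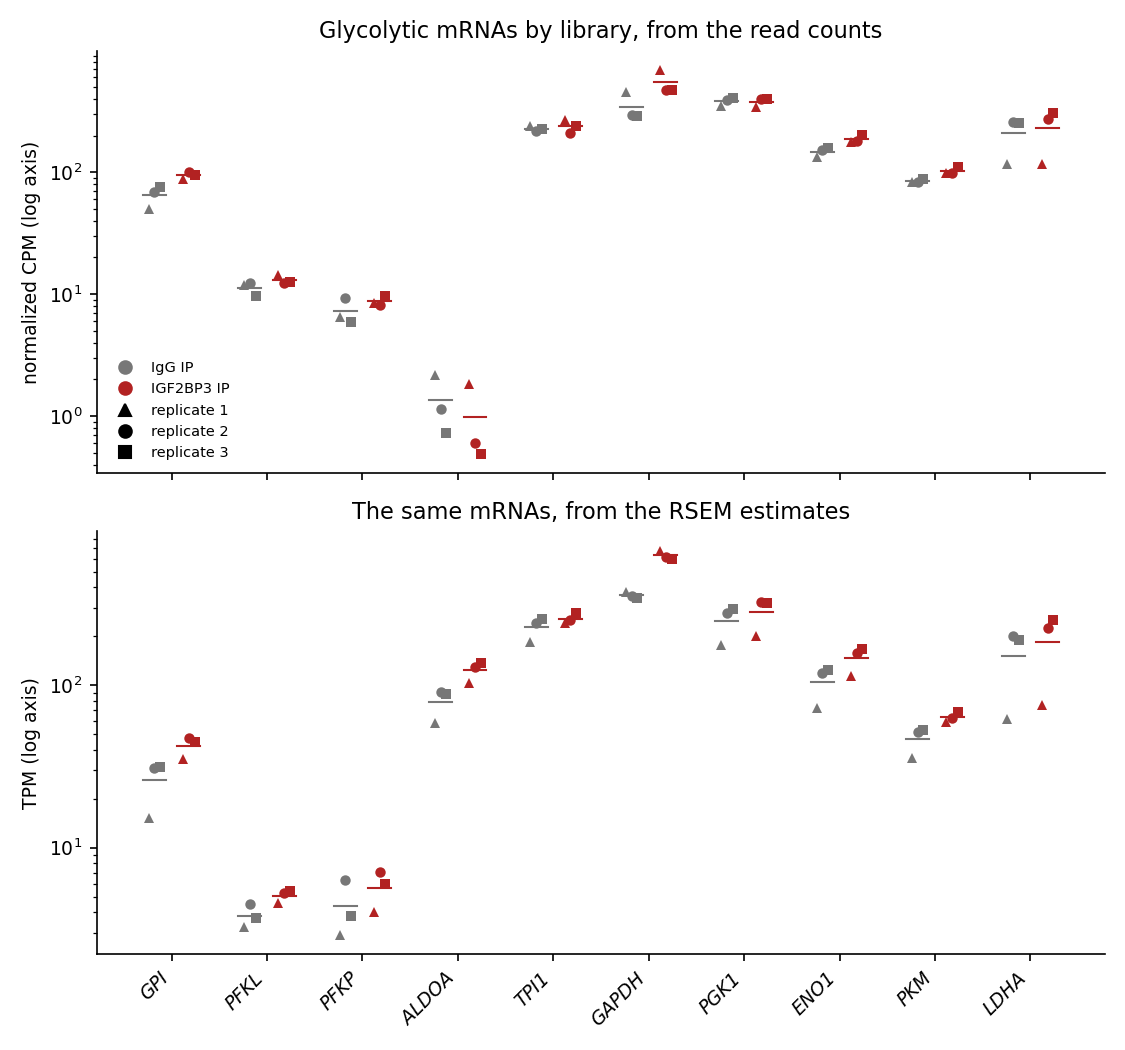
The 10 glycolytic mRNAs in pathway order, in normalized CPM from the read counts (upper panel) and in TPM (lower panel), both on log axes, with a point for each library (grey, IgG IP; red, IGF2BP3 IP; symbols for replicates) and a bar at each group mean of 3 libraries. The *GAPDH* points of the IgG IP (288 to 453 CPM) lie below those of the IGF2BP3 IP (471 to 690 CPM), replicate 1 is low for *LDHA* in both groups, and *ALDOA* is near 1 CPM but at 58.3 to 137 TPM.

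*ALDOA* (ENSG00000149925.22, chromosome 16, 30064164 to 30070457, plus strand) gave opposite directions in the counts and the TPM values. It had only 6 to 22 counts per library, with 2.17, 1.14 and 0.73 normalized CPM in the IgG IP, against 1.85, 0.60 and 0.49 in the IGF2BP3 IP. The TPM values were 58.3, 90.3 and 88.1 in the IgG IP, against 104, 130 and 137 in the IGF2BP3 IP. By CPM the groups overlapped, with a log2 fold change of -0.42 (SE 0.59), whereas by TPM every IGF2BP3 IP library was above every IgG IP library, with a log2 fold change of 0.66 (SE 0.21) on the log2(TPM + 1) scale. In the annotation, 1472 of the 1640 bases of its canonical transcript (89.8%) are also exons of another gene on the same strand, *AC093512.2*, which had 3 to 28 counts and 5.08 to 10.4 TPM. Exon 4 of *ALDOA* is shown because it is shared over its whole length of 212 bases, all in capitals, on the transcript strand at chr16:30067450-30067661.
*ALDOA* exon 4: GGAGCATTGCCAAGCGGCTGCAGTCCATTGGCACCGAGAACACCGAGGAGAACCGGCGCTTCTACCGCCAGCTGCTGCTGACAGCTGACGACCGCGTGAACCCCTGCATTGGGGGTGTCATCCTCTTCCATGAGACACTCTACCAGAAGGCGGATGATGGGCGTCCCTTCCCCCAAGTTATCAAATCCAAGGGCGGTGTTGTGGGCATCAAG

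To compare the counts with the RSEM estimates, the counts were divided by FPKM and transcript length and set against the median of 11678 tested protein-coding genes. *GAPDH* stood at 104% of that median, *TPI1* at 107%, *ENO1* at 113%, *PKM* at 111%, *LDHA* at 92.1%, *PFKP* at 93.8%, *GPI* at 86.8% and *PFKL* at 141%. *PGK1* was lower, at 45.3%, just under the 10th percentile of these genes (47.1%). *ALDOA* was at 1.14% (0.36% to 2.54% over the libraries). Among the paralogs, *LDHB*, the heart-type subunit of lactate dehydrogenase, was at 0.65%, and 997 of its 1303 transcript bases are shared with *AC010197.2*, which had 0 counts. *LDHB* had 31 to 74 counts per library against 643 to 837 TPM, above *GAPDH* in TPM in 5 of 6 libraries. The count-based values of *ALDOA* and *LDHB* thus rest on far fewer reads than their FPKM imply.

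**Figure D2:**
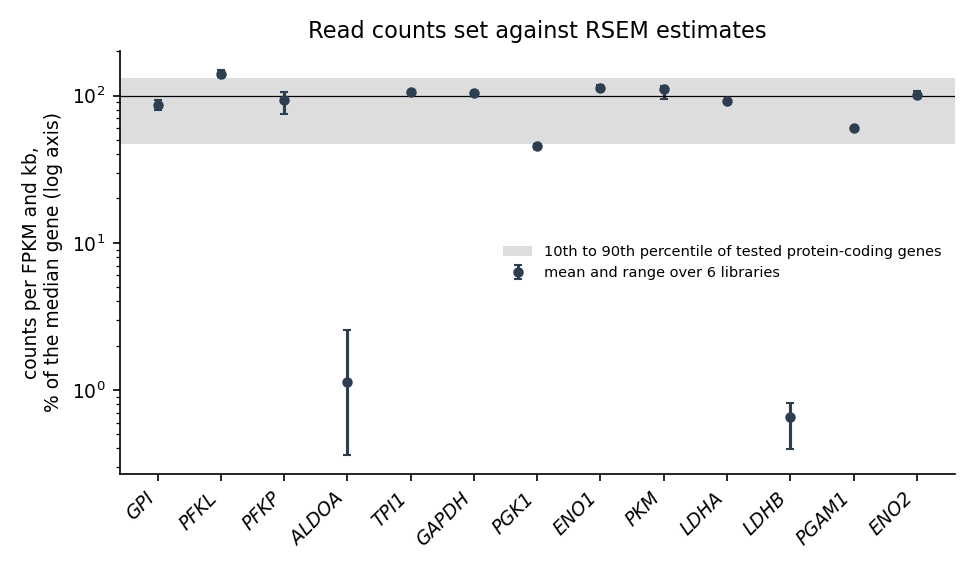
Read counts per FPKM and kb of transcript, as a percent of the median tested protein-coding gene (log axis), for the 10 mRNAs and 3 related genes, with points at the mean and bars over the range of 6 libraries. *ALDOA* and *LDHB* lie near 1%, and all others lie between 45.3% and 141%.

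Over the list, 8 of the 10 mRNAs had a log2 fold change above 0 and 2 below, with a median of 0.23, against -0.01 over all 14507 genes tested. At a fold change of at least 1.5 and an adjusted p under 0.05, 0 of the 10 were called higher, beside 1.16% of all genes (169 of 14507). At an unadjusted p under 0.05 the count was 4 of 10, beside 12.8% of all genes, and DESeq2 called 1 of 10, *GAPDH*, beside 2.22% of all genes. With the replicate block, 1 of 10 was called, again *GAPDH*, beside 3.56% (517 genes). On the log2(TPM + 1) scale 0 of 10 were called, beside 0.0223% of all genes, and with the block 2 of 10, *GAPDH* and *ALDOA*, beside 1.28%. The libraries of 4 mRNAs were all higher in the IGF2BP3 IP by CPM (*GAPDH*, *GPI*, *ENO1* and *PKM*), beside 12% of all genes. By TPM these were 5 (*GAPDH*, *GPI*, *PFKL*, *ALDOA* and *PKM*), beside 9.81%. All same-numbered pairs were higher for 5 of 10 by CPM, beside 25.1% of all genes, and for 10 of 10 by TPM, beside 37.4%. As the list was built around a gene chosen for this comparison, nothing is read from these shares.

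On the log2(TPM + 1) scale the median log2 fold change of all genes was itself above 0, at 0.12. Relative to that median the log2(TPM + 1) fold changes were 0.69 for *GAPDH*, 0.63 for *GPI*, 0.54 for *ALDOA*, 0.38 for *ENO1*, 0.33 for *PKM*, 0.22 for *PFKP* and *PFKL*, 0.17 for *LDHA*, 0.07 for *TPI1* and 0.06 for *PGK1*. The order from *GAPDH* and *GPI* through *ENO1* and *PKM* to *TPI1* and *PGK1* was thus the same on both scales, with *ALDOA* the exception. The 10 mRNAs held 0.137% to 0.151% of all counts in the IgG IP libraries and 0.177% to 0.189% in the IGF2BP3 IP libraries. *GAPDH*, chosen for its higher counts in the IGF2BP3 IP, made up 19.1% to 38.2% of these counts over the libraries. Nothing about the pathway is therefore read from these shares.

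**Figure D3:**
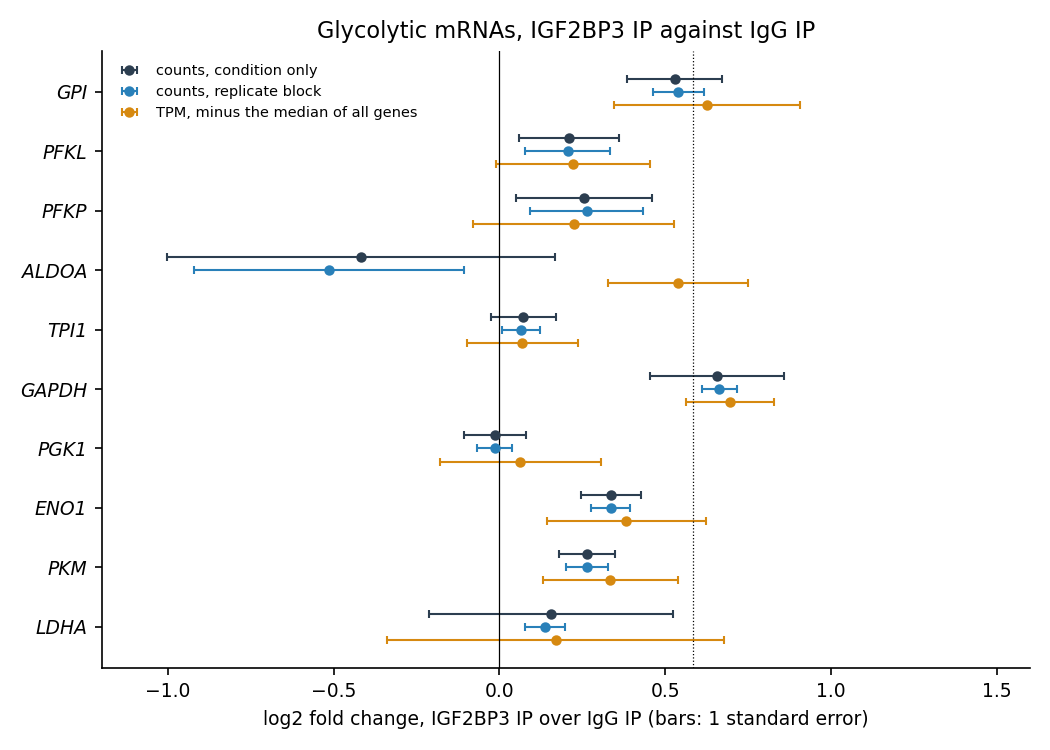
Log2 fold change of the 10 mRNAs, IGF2BP3 IP over IgG IP, from counts with condition only, from counts with the replicate block and from log2(TPM + 1) minus the median of all genes (0.12), with bars of 1 standard error over 3 libraries a group and a dotted line at a fold change of 1.5. *GAPDH* lies between 0.66 and 0.69 in all 3 fits, *TPI1* and *PGK1* lie near 0, and *ALDOA* changes sign between counts and TPM.

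Compared per length, in TPM, the IgG IP libraries had most of *GAPDH* (358 ± 15.4, SD, n = 3), followed by *PGK1* (250 ± 63.1), *TPI1* (227 ± 37.5), *LDHA* (151 ± 77.1), *ENO1* (105 ± 28.7) and *ALDOA* (78.9 ± 17.9). Neighbors from *PGK1* to *ALDOA* overlapped in their ranges over the libraries, so that their order is not settled. *PKM* (46.7 ± 9.80) and *GPI* (26.0 ± 9.24) followed, each separate from its neighbors. *PFKP* (4.35 ± 1.78) and *PFKL* (3.82 ± 0.65) were lowest and overlapped. These TPM describe RNA recovered with the control IgG. With no library of RNA before IP, they do not give the order of levels in the cells. In bulk libraries such as these, more cells with an RNA and more RNA per cell cannot be told apart.

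A comparison that played no part in choosing the genes set replicate 1 against replicates 2 and 3 over both IPs, in an edgeR fit that also held condition. The split was made because replicate 1 was known to stand apart, so its p-values describe the size of that gap relative to the spread and do not show that it would recur. Of the 10 mRNAs, 3 were called, 2 higher (beside 3.56% of all genes) and 1 lower (beside 4.29%), or 7.85% in either direction. On the log2(TPM + 1) scale (limma-trend) the calls differed but for *LDHA*, with 0 of 10 higher, beside 0.558% of all genes, and 5 lower (*GPI*, *PFKP*, *PGK1*, *ENO1* and *LDHA*), beside 22.6%, or 23.1% in either direction. *LDHA* was lower in replicate 1 by a log2 difference of -1.22 (SE 0.07, adjusted p = 8.5e-18), a larger step than that of any of the 10 mRNAs between the IPs. *GAPDH* was higher in replicate 1 by 0.59 (SE 0.05, adjusted p = 1.2e-11), a fold of 1.51 that lies at the minimum, and it missed that minimum without the filter on low counts (0.58), on library totals (0.54), and without IgG IP replicate 1 (0.55) or 3 (0.57). On the log2(TPM + 1) scale the difference of *GAPDH* was 0.13 (adjusted p = 0.064, limma-trend), so its call was lost there too. *ALDOA* was higher by 1.44 (SE 0.41, adjusted p = 0.0063) on its 6 to 22 counts.

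Among those not called, *GPI* was lower in replicate 1 by a log2 difference of -0.31 (adjusted p = 0.0023) and *PGK1* by -0.20 (adjusted p = 0.0037), both under the fold minimum. *TPI1* was higher by 0.18 (adjusted p = 0.015). The differences of *ENO1* (-0.15), *PKM* (-0.07), *PFKL* (0.17) and *PFKP* (-0.16) had adjusted p-values of 0.065 to 0.56. On the TPM scale the median of all genes was itself lower in replicate 1, by -0.39. Relative to it *GAPDH* was at 0.51, under the fold minimum, and *LDHA* at -1.25. *ALDOA*, *TPI1* and *PFKL* had the opposite sign on the TPM scale, at -0.48, -0.28 and -0.22. Relative to the median they were at -0.10, 0.11 and 0.17, so that *ALDOA* alone of these kept the opposite sign.

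The makeup of the glycolytic counts showed the same gap. *GAPDH* gave 31.3% of the counts on the 10 mRNAs in replicate 1 of the IgG IP (exact 95% interval 30.5% to 32.1%), and 19.9% and 19.1% in replicates 2 and 3. In the IGF2BP3 IP it gave 38.2% (37.5% to 38.8%), 27.0% and 25.5%. *LDHA* gave 8.01%, 17.2% and 16.8% in the IgG IP, against 6.52%, 15.5% and 16.7% in the IGF2BP3 IP. These intervals cover counting error only. The ratio of *LDHA* to *GAPDH* counts was 0.256, 0.865 and 0.881 in the IgG IP, against 0.171, 0.576 and 0.654 in the IGF2BP3 IP. It was lower in the IGF2BP3 IP within each pair, and lower in replicate 1 within each group. As *GAPDH*, by which it is divided, was chosen for its higher counts in the IGF2BP3 IP, nothing is read from the difference between the IPs. The small nuclear RNA *RN7SK* took 10.5% of the TPM in replicate 1 of the IgG IP, against 10.1% in replicate 1 of the IGF2BP3 IP, with 3.74% to 5.95% in the other libraries. In the counts *RN7SK* had 0 in every library, so it took no share of them. Its part in the gap of replicate 1 was not tested.

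**Figure D4:**
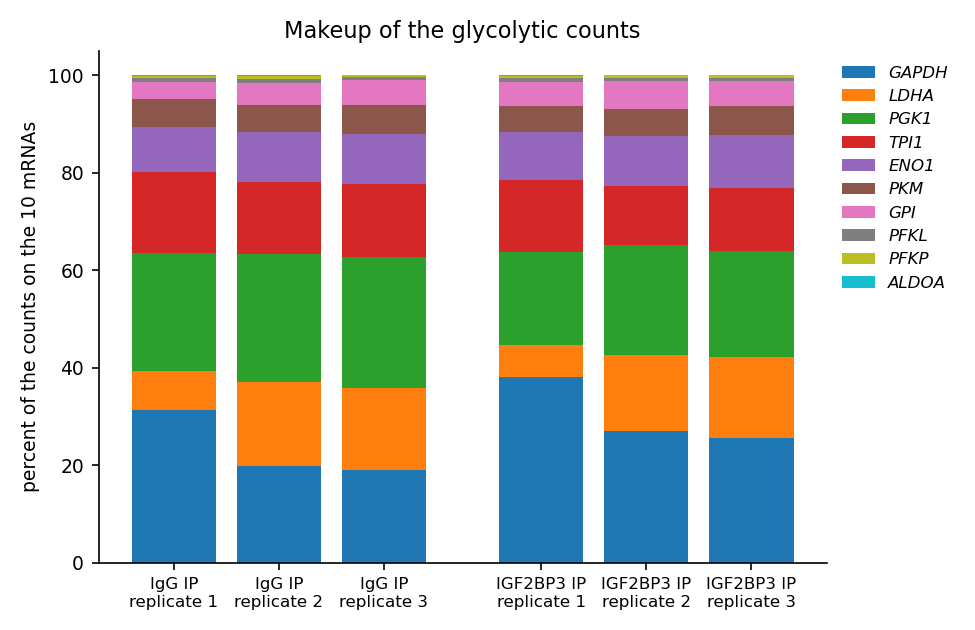
Percent of the counts on the 10 glycolytic mRNAs that fell on each of them, by library. *GAPDH* (bottom) is largest in replicate 1 of both groups, at 31.3% and 38.2%, where *LDHA* (second from the bottom) is smallest, at 8.01% and 6.52%.

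The wider pathway was described with 52 other genes of glucose metabolism, of which 35 passed the filter. In the IGF2BP3 IP against the IgG IP, 0 of the 35 were called in either direction (edgeR quasi-likelihood test), beside 1.16% of all genes, and 0 with DESeq2, beside 2.22%. Of the 35, 6 had an unadjusted p under 0.05, beside 12.8% of all genes, and the median log2 fold change was 0.02, with 20 above 0 and 15 below. The highest were *PDK3*, a kinase that holds pyruvate dehydrogenase inactive (0.59, SE 0.46, adjusted p = 0.64), *PC*, pyruvate carboxylase (0.54, SE 0.16, adjusted p = 0.19), and *SLC2A1*, the glucose transporter GLUT1 (0.41, SE 0.12, adjusted p = 0.19). *PDK3* was the 1 gene of the 35 that was called with the replicate block (0.64, adjusted p = 0.0086), beside 3.56% of all genes. On the log2(TPM + 1) scale with the block *PDK3* was not called (0.16, adjusted p = 0.70, limma-trend). Without single libraries its log2 fold change ran from 0.25 (without IgG IP replicate 1) to 0.92 (without IGF2BP3 IP replicate 1). The lowest were *PGAM2* (-0.36, SE 0.38, adjusted p = 0.74), *RPE* of the pentose phosphate pathway (-0.25, SE 0.09, adjusted p = 0.25) and *PDHX* of the pyruvate dehydrogenase complex (-0.16, SE 0.08, adjusted p = 0.44).

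By normalized CPM, the libraries of 7 of the 35 genes were all higher in the IGF2BP3 IP, beside 12% of all genes, among them *PGAM1*, *ENO2*, *SLC2A1* and *PC*. Those of 3 were all lower (*DLD*, *PDHX* and *RPE*), beside 8.69%. By TPM 6 were all higher, beside 9.81%, and 0 all lower, and *PGAM1*, *ENO2* and *SLC2A1* overlapped. *PGAM1*, the mutase between PGK1 and ENO1, had a mean of 105 ± 4.37 (SD, n = 3) normalized CPM in the IgG IP against 124 ± 10.6 (SD, n = 3) in the IGF2BP3 IP. Its log2 fold change was 0.24 (adjusted p = 0.29). The paralogs of the 10 genes had log2 fold changes of 0.33 for *ALDOC* (SE 0.29), 0.24 for *ENO2* (SE 0.11), 0.23 for *PFKM* (SE 0.31), 0.07 for *ENO3* (SE 0.20) and -0.01 for *LDHB* (SE 0.30), none of them called.

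In replicate 1 against replicates 2 and 3, 6 of the 35 genes were called, all lower, beside 4.29% of all genes called lower. On the log2(TPM + 1) scale 17 of the 35 were called lower, beside 22.6%. The 6 genes from counts were singled out after their values were seen. *HK2*, a hexokinase that traps glucose in the cell, had 4, 78 and 78 counts in replicates 1 to 3 of the IgG IP, against 6, 78 and 73 in the IGF2BP3 IP, so that replicate 1 was nearly without it in both groups. Its log2 difference was -3.60 (SE 0.35, adjusted p = 1.8e-10). The others were *PDK3* (-1.58), *PFKFB2* (-0.98), *HK1* (-0.85), *PFKM* (-0.77) and *ALDOC* (-0.65). *PFKM* and *ALDOC* lost their call without certain single libraries, IGF2BP3 IP replicate 1 for both, and with DESeq2, with adjusted p-values of 0.099 and 0.15.

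**Figure D5:**
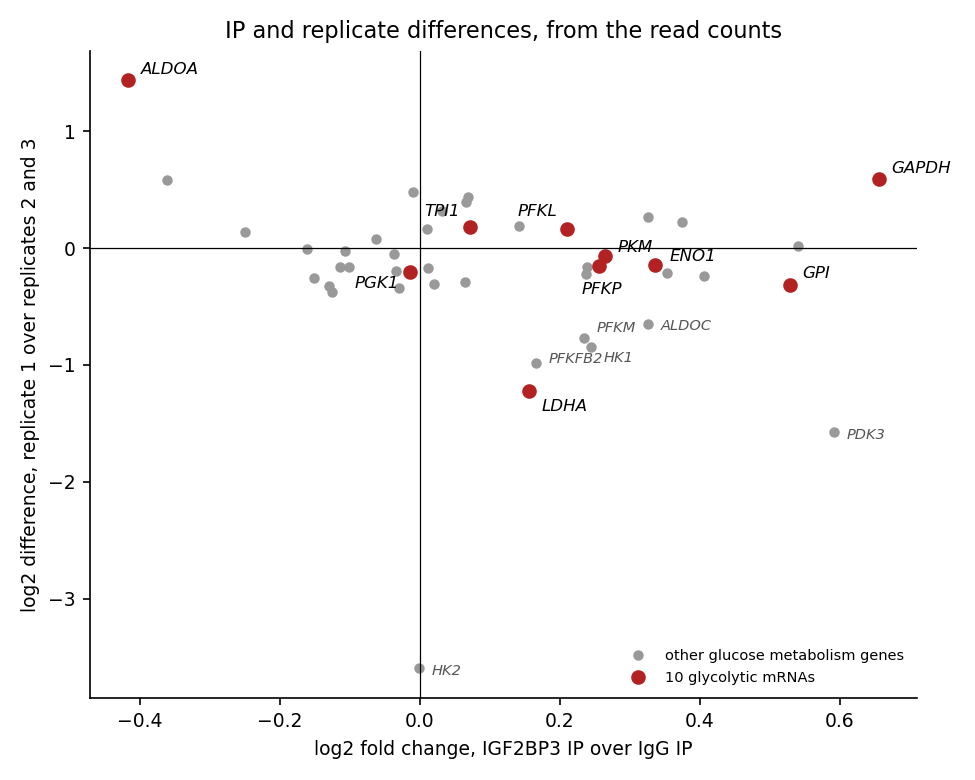
Log2 difference between replicate 1 and replicates 2 and 3 (vertical) against the log2 fold change of IGF2BP3 IP over IgG IP (horizontal), from counts, for the 10 glycolytic mRNAs (red) and 35 other tested glucose metabolism genes (grey). *GAPDH* is high on both axes (0.66 and 0.59), while *LDHA* (-1.22) and *HK2* (-3.60) are low in replicate 1 and within 0.16 of 0 on the horizontal axis.

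Over the 6 libraries, the protein-coding genes whose log2 normalized CPM followed *GAPDH* most closely, of 8541 compared, were *MLX* (Pearson's r = 0.995), *CYHR1* (0.994), *TTC39C* (0.994), *ATP6V0E2* (0.993) and *TPGS2* (0.989). No glycolytic gene was among these. *PFKL* had 0.79, *TPI1* 0.71, *PKM* 0.55, *ENO1* 0.43, *ALDOA* 0.33, *GPI* 0.31, *PFKP* 0.28, *LDHA* -0.55 and *PGK1* -0.69. The points share their libraries and the gap of replicate 1, and the values are a description.

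The transcripts differed in length and makeup. *GAPDH* (1285 bases) and *TPI1* (1351 bases) were the shortest and *PGK1* (4812 bases) the longest, beside a median of 3487 bases over 11867 tested protein-coding genes. GC content ran from 41.8% for *LDHA* and 42.8% for *PGK1* to 60.5% for *ALDOA* and 63.4% for *PFKL*, around 56.1% for *GAPDH* and a median of 47.8% over all. With each library corrected for GC content, the log2 fold changes were 0.55 for *GAPDH*, 0.47 for *GPI*, 0.26 for *ENO1* and 0.16 for *PKM*. They were 0.13 for *PFKP*, 0.03 for *PFKL*, 0.0007 for *TPI1* and -0.58 for *ALDOA*. *LDHA* (0.24) and *PGK1* (0.07) were raised by the correction, and the others were lowered, so that *LDHA* then stood above *PKM*. *GAPDH* then lay under the fold minimum also with the replicate block (0.56). The letters CACA, a short motif found in IGF2BP binding sites, were searched on the transcript strand, overlapping matches included. *GAPDH* held 7, or 5.45 per kb, and *TPI1* held 0, against a median of 4.29 per kb. Of 542 tested protein-coding transcripts of 1200 to 1500 bases, 6 (1.11%) held none. *GPI* had 4.36 per kb, *ENO1* 4.49 and *PKM* 2.60. The letters GGAC, part of the consensus of m6A sites that IGF2BP proteins are known to read, occurred 3.11 times per kb in *GAPDH*, 5.33 in *GPI* and 7.38 in *PKM*, beside a median of 3.57. A match or its absence says only what these transcripts hold.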

How the data were processed

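Libraries of 3 IGF2BP3 IPs and 3 IgG IPs were compared, with groups and replicate numbers taken from the sample labels. Reads were paired-end and 150 bp long, and the authors mapped them with STAR 2.7.9a to GRCh38 and ran RSEM on GENCODE version 37, per the paper's methods and the submitters' processing notes. The authors deposited raw counts for each gene, and beside them the TPM and FPKM values of RSEM. The program and strand setting behind the counts are not given in the sources used here.

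After filterByExpr and TMM normalization, counts were fitted in edgeR 4.0.16 (R 4.3.3) on condition alone, with its quasi-likelihood test and Benjamini-Hochberg adjustment over all 14507 genes. Standard errors were taken as the log2 fold change divided by the root of its F statistic. Thresholds were a fold change of at least 1.5 and an adjusted p under 0.05. Within-pair log2 differences were taken on normalized CPM without a pseudocount, and correlations with *GAPDH* with a pseudocount of 0.5 CPM. TPM were compared with limma-trend (limma 3.58.1) on log2(TPM + 1) in 13430 genes with at least 1 TPM in 3 libraries. This alternative was added after the data were seen. The other alternatives were DESeq2 1.42.0, other size factors, other filters, voom, a pseudocount of 0.1 TPM, a loess GC correction, a replicate block and leaving out each library. Same-numbered libraries had correlated deviations from the means of their groups (0.54, 0.26 and 0.22 over genes, in number order) and were treated as pairs. Replicates 2 and 3 correlated as much across numbers (0.26 and 0.25), so these values set apart replicate 1 only. The sources do not say what a number marks.

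Coordinates, overlaps, sequences, GC content and motifs came from GENCODE version 44 canonical transcripts on GRCh38, which matched 60481 of 60655 identifiers. The fits were tested on simulated counts. For the comparison of the IPs these held no gap of replicate 1, so they do not cover that feature of the data. The genes, lists and comparisons were chosen with earlier results of these data known. The genes named were the 10 members, their pseudogenes and the 5 genes most like *GAPDH* (mean of at least 10 CPM). Also named were the highest and lowest 3 of the other glucose metabolism genes, called genes and paralogs. Of the genes that overlap members and had at least 10 counts in a library, *AC006064.4* and *AC093512.2* were described. Others were not, among them *ATP7A* (223 to 365 counts), which overlaps *PGK1* on the same strand and shares 0 bases of its canonical exons. *PGAM1*, *HK1*, *HK2*, *PFKFB2*, *RN7SK*, *AC010197.2* and the genes listed for not overlapping between groups were added after their values were seen. A gene of the wider list is not reported here.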

Additional observations from a re-analysis of the deposited data

How the results depend on the processing

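The number of all enriched RNAs (169) was 281 with DESeq2, 359 without a filter, 0 with limma-trend on log2(TPM + 1) or log2(TPM + 0.1), 3 with the filter on TPM, 517 with the replicate block, 111 with the GC correction and 345 with both. Leaving out single libraries gave 0 to 244, the lowest being 0 when IGF2BP3 IP replicate 2 was left out, 7 and 19 for replicates 3 and 2 of the IgG IP, and 23 for IGF2BP3 IP replicate 3. Of the 10 glycolytic mRNAs, 1 was enriched with DESeq2, without a filter or with the replicate block, 2 (*GAPDH* and *ALDOA*) with the filter on TPM and the block, and 0 to 1 when a library was left out (*GAPDH*, at 0.90, without IgG IP replicate 1). Their median log2 fold change (0.23) was 0.40 with log2(TPM + 1), with or without the filter on TPM and the block, 0.44 with log2(TPM + 0.1), 0.14 with GC correction and 0.15 with GC correction and the block, and 0.17 to 0.31 without single libraries. *GAPDH* ran from 0.45 to 0.90 without single libraries. Of the other glucose metabolism genes, 1 was enriched with the block and 1 with GC correction and block. The genes that differed in replicate 1 (1139) were 3106 on TPM and 840 to 1169 without single libraries.

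Signs turned for *ALDOA* (0.66 on TPM, with or without the block, and 0.041 without IgG IP replicate 1), *LDHA* (-0.13 without IgG IP replicate 1, -0.12 without IGF2BP3 IP replicate 3), *PGK1* (0.18 on TPM, 0.027 on library totals, 0.068 with GC correction, with or without the block, and up to 0.055 without single libraries), *TPI1* (-0.0049 with GC correction and the block, -0.017 without IGF2BP3 IP replicate 1), *RPE* (0.0041 on TPM), *PDHX* (0.060 on TPM), *PGAM2* (0.056 without IgG IP replicate 1, range -0.58 to 0.056 without single libraries), *ENO3* (-0.45 and -0.53 on TPM with 1 and 0.1 added, -0.039 with GC correction, -0.033 with GC correction and the block, and -0.069 to 0.28 without single libraries) and *LDHB* (0.032 on library totals, 0.047 with voom, 0.057 on TPM, 0.063 with GC correction, 0.066 with GC correction and the block, and -0.28 to 0.16 without single libraries). In replicate 1 against the others, signs turned on TPM for *PFKL* (-0.22), *ALDOA* (-0.48) and *TPI1* (-0.28). The call of *ALDOA* there was lost with DESeq2 (adjusted p = 0.074) and without either replicate 1 library (0.061 and 0.17). The cause was not tested. Depth limited *PFKP* and *PFKL*, whose counts were at most 184. *ALDOA* and *LDHB* were limited by counts far below what their FPKM imply.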
